A study of Mus musculus with 16 samples.

Results

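Cd34, Ltbp2 and Susd2 encode a sialomucin of the cell surface, a glycoprotein of the extracellular matrix and a membrane protein with a sushi domain. They are 3 of the 22612 genes counted in cells sorted from mouse hair follicle organoids, and they were chosen by their RNA-seq counts, which were higher in hair follicle stem cells (HFSCs) than in progenitors. Among genes that were higher in HFSCs and had a mean of at least 10 counts, Cd34 and Ltbp2 held ranks 2 and 3 by p-value in untreated cells, and Cd34 and Susd2 held ranks 2 and 3 with N1-acetylspermidine (N1-AcSpd). Krt15, a keratin of the hair follicle bulge, held rank 1 in both. In untreated cells the log2 difference between HFSCs and progenitors was 2.35 (SE 0.194) for Ltbp2, just inside the choice, and 3.02 (SE 0.323) for Atp12a, just outside it. With N1-AcSpd it was 1.84 (SE 0.157) for Susd2 and 1.73 (SE 0.153) for Ptn, the next gene. The RNA-seq difference between cell types that chose a gene is given below as a description and supports nothing.

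The organoids, called 3D-3C cultures, were grown for 2 weeks from epidermal cells of C57BL/6J mice. Cells positive for integrin α6 were sorted into progenitors, which lacked the CD34 protein, and HFSCs, which carried it. The 4 groups were untreated progenitors, untreated HFSCs, and progenitors and HFSCs from organoids that received N1-AcSpd, an acetylated polyamine, for the last 72 h of culture. Each of 2 donor mice gave an RNA-seq and a Ribo-seq library per group from the same lysate, so that n = 2 per group and assay, and the labels do not give the age of the donors. The methods of the study name mice of both sexes in telogen, the resting phase of the hair cycle, from a younger and an older range of postnatal days, without saying which range these donors came from. The numbers of the treated HFSC libraries in RNA-seq may be exchanged between the mice, which is not settled here, so values per mouse that use these libraries follow the labels. Ribo-seq counts the mRNA fragments that ribosomes protect, called footprints. In these pooled cells, a change in the share of cells that express a gene and a change in its RNA per cell cannot be told apart.

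The RNA-seq libraries held 21612795 to 31524062 counts on the transcripts used and the Ribo-seq libraries 34475 to 268052 footprints. Summed markers of basal keratinocytes (Krt5, Krt14, Trp63, Cdh1, Dsg3 and Epcam) stood at 34398 to 41185 CPM, counts per 1000000 of the scaled library, and all 6 were present in every library. CD34 protein is also known from endothelial and blood cells. Of 8 endothelial markers 5 stayed under 1 CPM in every library, Cdh5 and Emcn had no count in any, and the summed level was 7.99 to 11.3 CPM, most of it Egfl7. Of 8 leukocyte markers 7 stayed under 1 CPM, Csf1r, Lyz2 and Cd207 had no count, and the sum was 1.80 to 5.65 CPM. Fibroblasts are a known source of LTBP2. Lum had no count in any library and the 8 fibroblast markers summed to 1.07 to 15.4 CPM, the highest value in N1-AcSpd-treated progenitors of mouse 2. The melanocyte markers summed to 0.825 to 2.12 CPM.

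CD34 is a heavily glycosylated sialomucin of the family of podocalyxin and endoglycan, and its presence on the bulge, the stem cell niche of the resting mouse hair follicle, is the basis of its use for sorting. LTBP2 belongs to the latent TGF-β binding proteins, which are large secreted proteins built of repeated EGF-like domains. It attaches to fibrillin microfibrils and has a role in elastic fibres, but unlike its paralogs it is not known to bind latent TGF-β. SUSD2 spans the membrane once, marks mesenchymal stem cells of the endometrium and binds galectin-1.

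Cd34 lies on chr1:194938819-194961279 on the plus strand, Ltbp2 on chr12:84783212-84876532 on the minus strand and Susd2 on chr10:75636706-75644008 on the minus strand (GENCODE vM21, GRCm38). An antisense gene is annotated across Cd34 (Gm16897) and across Ltbp2 (D030025P21Rik). Strand-specific counting is not stated in the sources used here, so reads of these antisense genes cannot be told apart from those of Cd34 and Ltbp2, while no gene overlaps Susd2. The counts are those of 1 transcript per gene, Cd34-201 with 1146 coding bases, Ltbp2-202 with 5358 and Susd2-202 with 2460.

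The promoters of Cd34 and Ltbp2 are shown because both genes had high RNA in HFSCs while their values under N1-AcSpd were unlike. Both are the RefSeq sequences of GRCm38.p6 that lie before every annotated start, printed 5′ to 3′ on the strand of the gene, chr1:194938571-194938818 for Cd34 and chr12:84876559-84876741 for Ltbp2, with matches to the motifs searched in capitals.
Cd34: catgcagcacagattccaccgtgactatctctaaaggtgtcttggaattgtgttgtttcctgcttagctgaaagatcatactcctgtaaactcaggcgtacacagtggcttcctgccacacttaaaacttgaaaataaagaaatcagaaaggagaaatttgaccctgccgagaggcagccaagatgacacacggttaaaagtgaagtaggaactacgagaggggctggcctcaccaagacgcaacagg
Ltbp2: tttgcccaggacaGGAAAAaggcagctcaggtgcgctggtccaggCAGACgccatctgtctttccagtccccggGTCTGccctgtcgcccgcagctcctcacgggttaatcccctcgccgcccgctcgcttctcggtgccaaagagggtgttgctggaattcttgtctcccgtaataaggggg

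The motifs were searched on both strands of the whole window of 300 bases, 250 before and 50 after the RefSeq start. The Ltbp2 window held GGAAAA, the letters searched for NFAT factors, 1 time. It held CAGAC, the short SMAD motif, 3 times, of which 2 lie in the printed stretch, the second as its reverse complement. The shorter GGAAA was not searched. GGAAAA occurs in 23.4% and CAGAC in 49.6% of all 32851 promoter windows. Neither window held TATAAA of the TATA box (13.6% of all windows), TAATTA of LHX2-type homeodomains (5.29%), ATTGTT of SOX factors (10.7%) or TGANTCA of AP-1 (7.81%), and the Cd34 window held none of the 6 motifs. The Cd34 window had 50% GC and the Ltbp2 window 61%, beside a median of 52.7% over all windows. A window for Susd2 is not shown here. A match is a description of letters and not a binding site.

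Cd34 RNA was at a low level in progenitors and high in HFSCs, in either treatment. Its counts were 57 and 83 in untreated progenitors of mouse 1 and mouse 2, 53 and 111 in treated progenitors, 2167 and 2292 in untreated HFSCs and 2159 and 2132 in treated HFSCs. On the CPM scale this was 2.96 ± 0.863 (SD, n = 2), 3.88 ± 2.09, 77.1 ± 13.7 and 79.0 ± 15.4. Progenitors and HFSCs did not overlap (as in 19.1% of genes untreated and 19.6% treated, with HFSCs higher), whereas treated and untreated libraries of the same cell type did, so that the order of the groups within a cell type is not set by these data. The log2 difference between HFSCs and progenitors was 4.70 (SE 0.351), or 26.0-fold, in untreated cells and 4.36 (SE 0.344), or 20.5-fold, with N1-AcSpd. The mice gave 4.80 and 4.57 untreated, and 5.18 and 3.65 with N1-AcSpd, where the progenitors of mouse 2 had the higher Cd34 level of 5.36 CPM and the highest fibroblast marker sum. The part of those cells in the Cd34 value was not tested.

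Ltbp2 RNA was the scarcest of the 3 genes and differed between all 4 groups without overlap. With N1-AcSpd 20.7% of all genes were lower without overlap in progenitors and 17.2% in HFSCs. The share without overlap of all 4 groups was not counted. Its counts were 55 and 59 in untreated progenitors, 22 and 19 in treated progenitors, 398 and 322 in untreated HFSCs and 93 and 128 in treated HFSCs. The levels, from low to high, were 0.956 ± 0.0549 CPM (SD, n = 2) in treated progenitors, 2.40 ± 0.191 in untreated progenitors, 3.98 ± 0.156 in treated HFSCs and 12.3 ± 0.135 in untreated HFSCs. Each neighbour in this order lay further apart than the spread between the mice. In untreated cells, the contrast that named Ltbp2, the log2 difference between HFSCs and progenitors was 2.35 (SE 0.194), or 5.10-fold. The treated libraries did not enter that contrast, but they come from the same mice and shared the estimate of spread in the fit. In them Ltbp2 was higher in HFSCs by 2.05 on the log2 scale (SE 0.217), or 4.15-fold. The adjusted p was 0.0113 in edgeR's quasi-likelihood test, which is thus not independent of the choice. In that comparison 0.302% of the 14224 genes tested were called higher. The 4 libraries compared were left out in turn. The call held without treated HFSCs of mouse 2 and was lost without any of the other 3, with adjusted p of 0.0512 to 0.0935, and when only the 4 libraries compared were fitted (0.0729).

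Susd2 RNA was abundant in both cell types and followed the order of Ltbp2. Its counts were 869 and 851 in untreated progenitors, 278 and 315 in treated progenitors, 1981 and 2156 in untreated HFSCs and 1197 and 1547 in treated HFSCs. The levels, from low to high, were 13.9 ± 1.86 CPM (SD, n = 2) in treated progenitors, 36.2 ± 0.544 in untreated progenitors, 49.7 ± 0.265 in treated HFSCs and 71.6 ± 14.1 in untreated HFSCs. No neighbouring groups overlapped, where 20.7% of all genes were lower with N1-AcSpd without overlap in progenitors and 17.2% in HFSCs. The contrast that named Susd2, HFSCs against progenitors with N1-AcSpd, gave a log2 difference of 1.84 (SE 0.157), or 3.58-fold. The untreated libraries did not enter that contrast, but shared the estimate of spread in the fit. In them the log2 difference was 0.98 (SE 0.150), or 1.97-fold, and it did not pass the test (adjusted p = 0.0664 in edgeR). Both HFSC libraries lay above both progenitor libraries, as for 19.1% of genes. There 0.112% of the 14224 genes tested were called higher. DESeq2 called the untreated Susd2 difference (adjusted p = 1.23e-05).

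**Figure D1:**
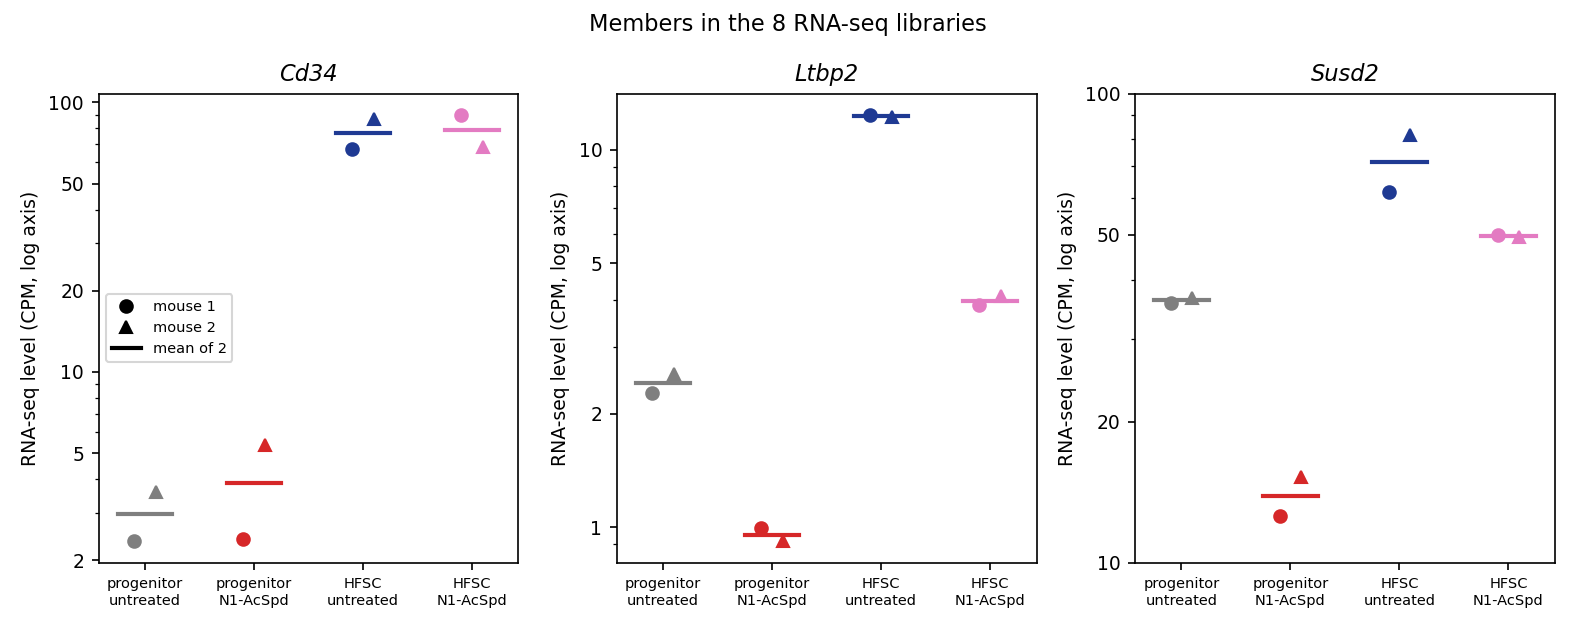
RNA-seq level (CPM, log axis) of Cd34, Ltbp2 and Susd2 in the 8 libraries; points are libraries (circle, mouse 1, triangle, mouse 2) and lines the mean of 2. Cd34 separates by cell type alone, while Ltbp2 and Susd2 run from treated progenitors (0.956 and 13.9 CPM) over untreated progenitors and treated HFSCs to untreated HFSCs (12.3 and 71.6 CPM).

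Levels of different genes can be set side by side only per length. Per 1000 coding bases, untreated HFSCs had 67.2 CPM of Cd34, 29.1 of Susd2 and 2.29 of Ltbp2. In untreated progenitors Susd2 led with 14.7 CPM per 1000 coding bases, followed by Cd34 with 2.58 and Ltbp2 with 0.449. Over the 8 libraries the log2 CPM of Ltbp2 and Susd2 correlated with r = 0.94, those of Cd34 and Ltbp2 with 0.80 and those of Cd34 and Susd2 with 0.77. These describe 4 groups of the same mice and libraries rather than independent samples.

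N1-AcSpd was compared with untreated cells within each cell type to ask whether the treatment moved these genes. Susd2 was lower with N1-AcSpd in progenitors, at 35.8 and 36.6 CPM untreated and 12.6 and 15.2 CPM treated in mice 1 and 2. The log2 change was −1.38 (SE 0.157; 95% interval −1.74 to −1.03), a level 2.61-fold lower, with an adjusted p of 0.0258 in edgeR. In this comparison 3 of the 14224 genes tested, or 0.0211%, were called lower, 20.7% had both treated libraries below both untreated ones, and Susd2 was rank 7 by p-value among all genes. The call did not hold without any single library of the contrast (adjusted p = 0.0786 to 0.266) nor with counts summed over transcripts (0.0628), and it held with the mouse as a block (0.0405). The untreated progenitor libraries do not enter the contrast that named Susd2, but the treated ones do. The sign of this change and its call are therefore favoured by the choice of the gene.

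In HFSCs Susd2 stood at 61.6 and 81.6 CPM untreated and at 49.8 and 49.5 CPM with N1-AcSpd. Both treated libraries lay below both untreated ones, as for 17.2% of genes. The log2 difference of −0.53 (SE 0.148; 95% interval −0.86 to −0.19) did not pass the test (adjusted p = 0.390). No gene of 14224 was called in this comparison by edgeR (0%), beside 1100 at an unadjusted p under 0.05 and 125 called by DESeq2. The HFSC change of Susd2 lay above its progenitor change by 0.86 on the log2 scale (SE 0.214; 95% interval 0.37 to 1.34). This interaction contains the treated difference between cell types that named Susd2, so its sign is favoured by the choice of the gene and the value is a description. The test of the interaction over all genes called none (0%), with 118 genes at an unadjusted p under 0.05 and none called by DESeq2.

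Ltbp2 had lower values with N1-AcSpd in both cell types, and neither difference passed the test. The groups did not overlap, as for 20.7% of genes in progenitors and 17.2% in HFSCs that were lower. In HFSCs it stood at 12.4 and 12.2 CPM untreated and 3.87 and 4.09 CPM treated. The log2 difference was −1.62 (SE 0.185; 95% interval −2.04 to −1.20), a level 3.08-fold lower, with −1.66 in mouse 1 and −1.56 in mouse 2. The adjusted p was 0.0562, although only 2 genes had a smaller p-value. In progenitors the level was 2.27 and 2.54 CPM untreated and 0.994 and 0.917 CPM treated. The log2 difference there was −1.32 (SE 0.224; 95% interval −1.83 to −0.82), or 2.51-fold lower, with an adjusted p of 0.0674. DESeq2 called both differences (adjusted p = 2.69e-05 in HFSCs and 0.0366 in progenitors). With the mouse as a block, numbered as in the labels, the adjusted p in edgeR rose to 0.141 and 0.137. With the numbers of treated HFSCs exchanged in that block, a setting added after seeing the data, it was 0.00226 and 0.0169. Which numbering is right is not settled here. The untreated libraries of both differences are also those that named Ltbp2 for its high level in untreated HFSCs. That choice favours a lower treated value in HFSCs. The interaction, which contains the untreated difference that named Ltbp2, was −0.30 (SE 0.294; 95% interval −0.97 to 0.37), and a difference between the cell types was not detectable at this n.

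Cd34 RNA gave no call with N1-AcSpd in either cell type. The log2 difference was 0.38 in progenitors (SE 0.378; 95% interval −0.48 to 1.24; adjusted p = 0.867) and 0.036 in HFSCs (SE 0.279; 95% interval −0.60 to 0.67; adjusted p = 0.992). By the numbers in the labels HFSCs went from 67.4 to 89.9 CPM in mouse 1 and from 86.7 to 68.2 CPM in mouse 2. With the numbers of treated HFSCs exchanged, the pairs would be 67.4 and 68.2 CPM, and 86.7 and 89.9 CPM. The HFSC interval spans levels from 0.660 to 1.59 times the untreated level, and smaller changes than these cannot be seen here. The interaction was −0.35 (SE 0.470), a description, since it contains both differences that named Cd34.

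**Figure D2:**
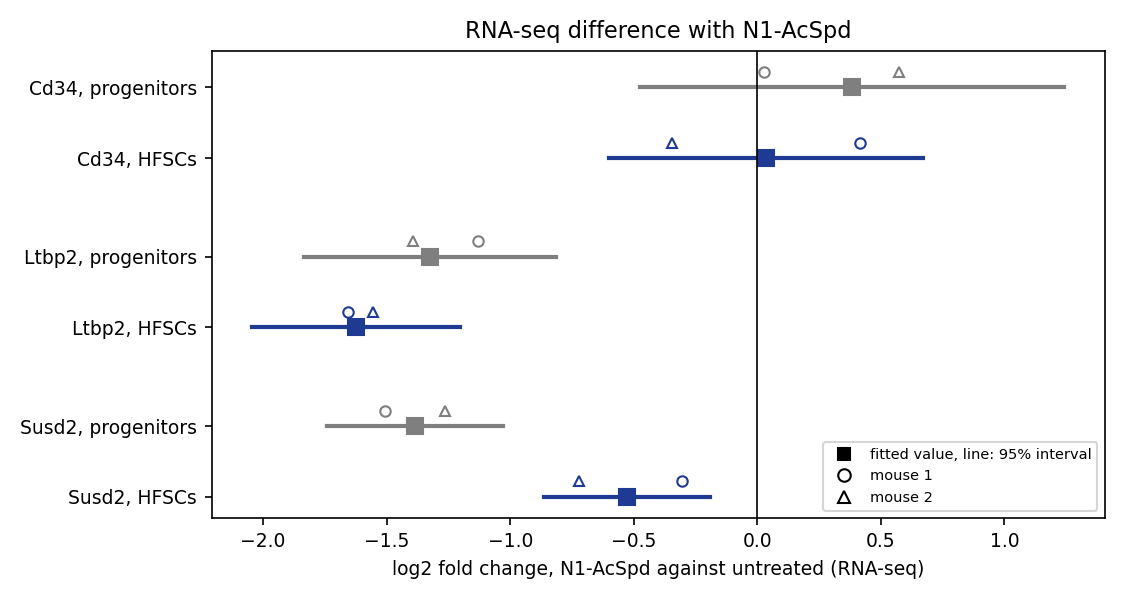
Log2 fold change of RNA-seq counts, N1-AcSpd against untreated, for each gene in progenitors (grey) and HFSCs (blue); squares are the fitted values, lines their 95% intervals, and open symbols the 2 mice. Ltbp2 and Susd2 lie below 0 in both cell types, with Susd2 at −1.38 in progenitors and −0.53 in HFSCs, and the intervals of Cd34 include 0.

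The Ribo-seq libraries were shallow, and footprints of the 3 genes are therefore given as raw counts. Cd34 had 0 and 4 footprints in untreated progenitors of mouse 1 and mouse 2, 0 and 0 in treated progenitors, 6 and 8 in untreated HFSCs and 10 and 8 in treated HFSCs. Every HFSC library thus had more Cd34 footprints than any progenitor library, and 13.7% of 8440 genes untreated and 18.5% treated were higher in HFSCs without overlap of CPM. Per 1000000 footprints of a group, untreated HFSCs had 75.4 and untreated progenitors 13.2, and treated HFSCs had 84.9. Set against the 3 footprints that a count of 0 allows over the treated progenitor group, the Cd34 share was 4.14-fold higher in treated HFSCs. This bound leaves out the counting error of the HFSC footprints. That bound moves between 1.81 and 6.50 when 1 of the 4 libraries is left out, lowest without treated progenitors of mouse 1. These values come from the lysates that chose Cd34 and are not tested.

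Susd2 footprints were 7 and 13 in untreated progenitors, 0 and 0 in treated progenitors, 1 and 22 in untreated HFSCs and 8 and 7 in treated HFSCs. The 2 libraries of untreated HFSCs differed so much that the direction between untreated cell types rests on the mouse. Per 1000000 footprints of a group, untreated HFSCs had 124 and untreated progenitors 66.1. Mouse 1 had fewer footprints in HFSCs and mouse 2 more. In treated cells the Susd2 share was 3.45-fold higher in HFSCs than in progenitors, again set against 3 footprints over the progenitor group. The counting error of the HFSC footprints is again left out. Without 1 library this bound runs from 1.51, without treated progenitors of mouse 1, to 5.68, without treated HFSCs of mouse 1.

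With N1-AcSpd, progenitors went from 20 Susd2 footprints of 302527 to 0 of 146116. Set against 3 footprints in place of the 0, the untreated share was 3.22-fold higher, a bound that leaves out the counting error of the 20. Without 1 of the 4 libraries this bound runs from 1.41, without treated progenitors of mouse 1, over 1.81, without those of mouse 2, to 9.89, without untreated progenitors of mouse 2. The change did not pass edgeR's test (adjusted p = 0.658), which called 0.0237% of 8440 genes lower, while 15.3% were lower without overlap of CPM. If Susd2 held the same share of footprints as of RNA, 1.99 footprints would have been counted in treated progenitors. In untreated progenitors its share of footprints was 1.85 times its share of RNA over both mice, with 5.72 in mouse 1 and 1.35 in mouse 2. In untreated HFSCs the ratio was 1.70, with 0.298 in mouse 1 and 1.99 in mouse 2, and in treated HFSCs it was 1.43, with 1.05 and 2.38. The mice lay too far apart to order these groups. The ratio of Cd34 was 0.962 in untreated HFSCs, with 1.63 and 0.680 in mice 1 and 2, and 1.09 in treated HFSCs, with 0.725 and 1.97. Pooled over the mice, the median of 8439 genes was 1.12 in untreated and 1.14 in treated HFSCs, within the range of the mice for either gene. In untreated progenitors the median was 1.17, below the Susd2 ratio of both mice. No fold of Cd34 between untreated and treated progenitors is given, because 13.2 per 1000000 footprints lies under the 20.5 that a count of 0 allows in treated progenitors.

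Ltbp2 had no footprint in any of the 8 libraries, on any of its 6 annotated transcripts. A count of 0 among 846325 footprints allows a share of up to 0.000354%, by counting error only. At the same share of footprints as of RNA, 4.05 footprints would have been counted over all libraries, 2.35 of them in untreated HFSCs. Translation of Ltbp2 was therefore not measurable at this depth, and no footprint comparison could be made for it.

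In HFSCs the footprints of Cd34 and Susd2 gave log2 differences with N1-AcSpd of 0.25 (SE 0.906) and −0.44 (SE 0.796), both with an adjusted p of 1.00 in edgeR. No gene of 8440 was called in that comparison (0%), with 299 at an unadjusted p under 0.05 and none called by DESeq2. The interaction of cell type and N1-AcSpd in footprints had an adjusted p of 1.00 for both genes and likewise called no gene (0%), with 230 at an unadjusted p under 0.05 and none in DESeq2. Translational efficiency, the change of footprints relative to RNA, differed with N1-AcSpd in HFSCs by 0.17 on the log2 scale for Cd34 (SE 0.654; 95% interval −1.19 to 1.53) and by −0.18 for Susd2 (SE 0.681; 95% interval −1.60 to 1.23). The adjusted p was 0.979 and 0.978, and no gene of 8389 was called (0%), with 579 at an unadjusted p under 0.05 and none in DESeq2. In progenitors the adjusted p was 0.819 for Cd34 and 0.803 for Susd2, with no fold given for groups without footprints, and no gene of 8531 was called (0%; 512 unadjusted, none in DESeq2).

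**Figure D3:**
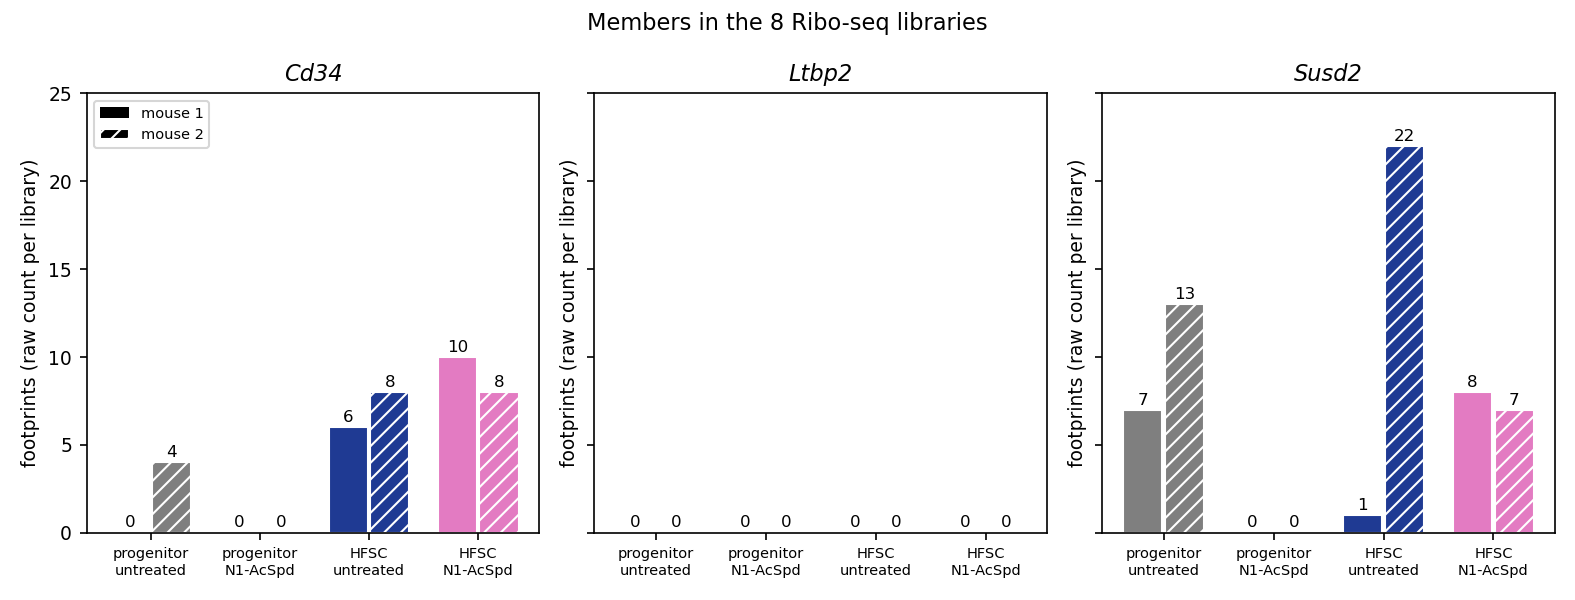
Raw footprints of Cd34, Ltbp2 and Susd2 in each of the 8 Ribo-seq libraries (bars from 0; plain, mouse 1, hatched, mouse 2), whose totals differ from 34475 to 268052. Treated progenitors have no footprint of any of the 3 genes, Ltbp2 has none in any library, and the Susd2 bars of untreated HFSCs stand at 1 and 22.

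Alternative transcripts of Cd34 and Susd2 were counted in parallel, with most reads shared between them. Cd34-201 counted 9054 reads over the 8 RNA-seq libraries and Cd34-202, which has 975 coding bases, 7947. The reads by which Cd34-201 exceeded Cd34-202 made up 11.3% to 14.7% of its counts in HFSCs and 4.82% to 12.3% in progenitors, where few counts stand behind each value. For Susd2-202 over Susd2-201 the same share was 3.84% to 5.57% in HFSCs and 2.86% to 5.17% in progenitors. The ranges overlapped between the cell types for both genes.

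Genes related to the 3 by family or function were followed in the same fits, as 6 lists with 82 genes, of which 75 were tested. The epidermal basement membrane and bulge matrix genes had mostly negative log2 changes with N1-AcSpd in progenitors. Of 21 tested, 17 had a negative and 4 a positive change, with a median of −0.32 beside −0.01 over all 14224 genes. Col7a1, the collagen of anchoring fibrils, was the member that passed the test. It fell from 257 ± 16.4 CPM to 153 ± 5.89 CPM (SD, n = 2; log2 change −0.75, SE 0.107; adjusted p = 0.0450), where 0.0211% of all genes were called lower, and it was not called with the mouse as a block. Postn, a matrix protein of adhesion sites, stood at 115 ± 18.7 CPM untreated and 59.9 ± 9.36 CPM treated (log2 −0.94, adjusted p = 0.190), and Lama3, a chain of laminin-332, at 932 ± 22.5 and 685 ± 26.9 CPM (log2 −0.44, adjusted p = 0.217). In Ribo-seq 14 of the 16 matrix genes tested had a negative log2 change in progenitors, with a median of −0.53 beside −0.055 over all genes, and none passed the test. At an unadjusted p under 0.05 there were 2 of the 16, beside 2.83% of all genes tested.

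In HFSCs 15 of the 21 matrix genes had a negative log2 change, with a median of −0.11 beside −0.01 over all genes, and none passed the test (0%). Postn was at 305 ± 90.1 CPM untreated and 174 ± 21.9 CPM treated there (log2 −0.81, adjusted p = 0.353). Between cell types Postn was higher in HFSCs with N1-AcSpd, at 174 ± 21.9 CPM against 59.9 ± 9.36 CPM (log2 1.54, SE 0.219; adjusted p = 0.0242), the only one of the 75 list genes called in that contrast by edgeR. In untreated cells its log2 difference was 1.41 (SE 0.216; adjusted p = 0.0664). Npnt, the nephronectin that bulge cells deposit, was at 8.47 ± 2.55 CPM in untreated progenitors and 17.7 ± 3.78 CPM in untreated HFSCs (log2 1.06, adjusted p = 0.237). Postn and Npnt do not stand for the list. Between untreated cell types 9 of the 21 matrix genes were higher and 12 lower in HFSCs, and none passed the test. Their median log2 difference was −0.02, beside −0.01 over all genes. Between treated cell types 15 were higher and 6 lower, with a median of 0.31 beside 0.0016 over all genes.

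Of the paralogs of Ltbp2, Ltbp3 and Ltbp4 had log2 differences of its sign between cell types and with N1-AcSpd, all smaller in size, and Ltbp1 had the opposite sign throughout. None passed the test, and their distance from Ltbp2 was not tested. With N1-AcSpd the log2 difference was 0.27 for Ltbp1, −0.072 for Ltbp3 and −0.14 for Ltbp4 in HFSCs, and 0.034, −0.098 and −0.40 in progenitors. Between treated cell types it was −0.23 for Ltbp1, 0.73 for Ltbp3 and 0.76 for Ltbp4. Between untreated cell types Ltbp1 was at 68.5 ± 2.91 CPM in progenitors and 49.7 ± 1.73 CPM in HFSCs (log2 −0.46, adjusted p = 0.370), Ltbp3 at 52.8 ± 10.8 and 86.1 ± 24.0 CPM (log2 0.71, adjusted p = 0.401), and Ltbp4 at 167 ± 36.7 and 235 ± 63.6 CPM (log2 0.49, adjusted p = 0.718). Of the 16 genes tested in the list of LTBP, fibrillin and elastic fibre genes, none was called in any of the 4 contrasts. With N1-AcSpd 10 had a positive and 6 a negative log2 change in progenitors (median 0.16), and 12 and 4 in HFSCs (median 0.33). Over all genes the median was −0.01 in either cell type. Fibrillins were scarce, with Fbn2 at 1.28 ± 0.540 CPM in untreated HFSCs and 0.478 ± 0.0888 CPM in treated ones (log2 −1.42, adjusted p = 0.628).

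Among 20 genes of TGF-β signalling, 15 had a negative and 5 a positive log2 change with N1-AcSpd in progenitors (median −0.17). In HFSCs 14 were negative and 6 positive (median −0.15). The median over all genes was −0.01 in either cell type, and none of the 20 passed the test. Tgfbi, a matrix protein induced by TGF-β, was at 508 ± 22.7 CPM in untreated and 351 ± 24.0 CPM in treated progenitors (log2 −0.53, adjusted p = 0.190). Itgb8, the integrin chain that activates latent TGF-β, was at 17.3 ± 0.458 CPM in treated progenitors and 32.6 ± 2.14 CPM in treated HFSCs (log2 0.92, adjusted p = 0.0505).

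The family of Susd2 and the surface markers gave no call by edgeR. Susd6, a membrane protein with a sushi domain, was at 109 ± 0.421 CPM in untreated and 81.4 ± 10.3 CPM in treated progenitors (log2 −0.42, adjusted p = 0.255), and Lgals1, which encodes galectin-1, at 5.62 ± 3.68 and 15.7 ± 12.7 CPM (log2 1.48, adjusted p = 0.512). Among the CD34 family and partners, Slc9a3r1, the NHERF1 scaffold that binds podocalyxin, was at 38.6 ± 0.279 CPM in untreated and 56.3 ± 7.34 CPM in treated progenitors (log2 0.55, adjusted p = 0.193). Podxl, the gene of podocalyxin, stayed at 0.274 CPM or less in the mean of every group. Between untreated cell types 4 of the 10 surface markers were higher in HFSCs and 6 lower, with a median of −0.07 beside −0.01 over all genes. In Ribo-seq 0 of the 7 tested were higher and 7 lower, and none passed the test. Lgr5, a receptor of follicle stem cells and thus not typical of this list, was at 0.193 ± 0.214 CPM in untreated progenitors and 4.11 ± 2.48 CPM in untreated HFSCs (log2 4.39, adjusted p = 0.149). Itga6, the other sort marker, was at 963 ± 24.3 and 745 ± 79.7 CPM (log2 −0.37, adjusted p = 0.274).

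**Figure D4:**
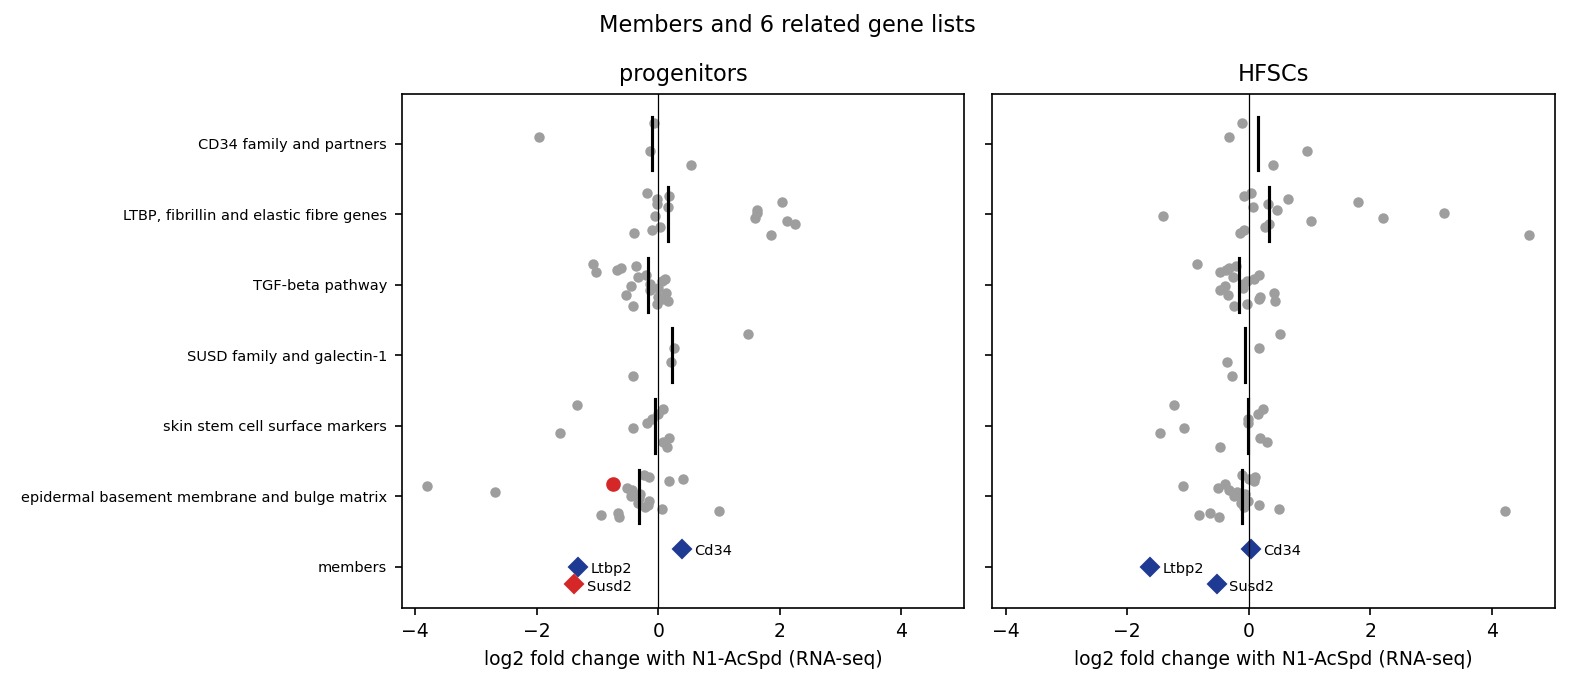
Log2 change of RNA-seq counts with N1-AcSpd in progenitors (left) and HFSCs (right) for the tested genes of 6 lists and the 3 genes described here; black lines are list medians and red marks an adjusted p under 0.05. Col7a1 and Susd2 are the marked genes in progenitors, at −0.75 and −1.38, and none is marked in HFSCs.

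The genes whose log2 CPM followed each of the 3 most closely over the 8 libraries were ranked by Pearson's r among 12256 genes. For Ltbp2 they were Krt15 (r = 0.993), Sertad4, Ids, Lbp and Zbtb49. Krt15 had mean levels of 100 CPM in treated progenitors, 180 in untreated progenitors, 327 in treated HFSCs and 723 in untreated HFSCs, the order of Ltbp2. For Susd2 they were Btd (r = 0.986), Csgalnact1, Dmwd, Col12a1 and Sertad4. Col12a1, a collagen that associates with fibrils, ran from 465 CPM in treated progenitors to 1045 CPM in untreated HFSCs. For Cd34 they were Shisa2 (r = 0.974), Slc27a1, Ptger2, Hist1h4c and Dram1. Shisa2 was scarce, with 0.254 CPM in untreated progenitors and 2.64 CPM in untreated HFSCs. The libraries of a group and of a mouse share culture and lysate, so these values rank likeness and carry no test.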

How the data were processed

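RNA-seq and Ribo-seq libraries came from lysates of progenitors and HFSCs, untreated or given N1-AcSpd for 72 h, of 2 mice (16 libraries). The genome build was GRCm38 (mm10) and the aligner STAR 2.7.3a, per the methods and labels, with flexbar for adapters and Bowtie 1.2.3 as the filter for structural RNA upstream of it. The authors deposited raw counts per transcript, and the labels name featureCounts, whose settings are not given in the sources used here. RNA-seq counts were identical in 1337 of 1340 transcript pairs that share coding segments but not UTRs, so the counts cover coding segments. The authors also deposited log2 fold changes and p-values of translational efficiency, not used here.

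For each gene 1 transcript was kept, the one with the highest footprint total and, in ties, RNA-seq total (22612 genes). Counts over all transcripts were 2.53 times the kept ones in RNA-seq and 2.25 times in Ribo-seq. CPM are counts per 1000000 of the TMM-scaled library. Fold changes, SE and p-values came from edgeR 4.0.16 (R 4.3.3), as a quasi-likelihood fit of the 4 groups to genes whose mean count was 1 or more. P-values were adjusted by Benjamini-Hochberg over all genes and called under 0.05. Translational efficiency was the interaction of assay and treatment within a cell type. The fit was tested on simulated data with 4-fold changes with N1-AcSpd in HFSCs. These were recovered for 92.5% of 200 genes in RNA-seq (14079 genes tested) and 52% in Ribo-seq (7910 genes tested). The 200 were picked only where the average over the simulated libraries reached 10. In the measured Ribo-seq data, 2261 of the 8440 genes tested reached that average. Both shares therefore describe the better counted genes, and they were not split further by count level. Cd34 had 36, Susd2 58 and Ltbp2 0 footprints over all Ribo-seq libraries, which is under that average for each of them. The 52% therefore does not give the recovery for genes with as few footprints as these. Exact permutation of 2 against 2 libraries cannot go below p = 0.333 and was not used. Intervals of fits are 95%, and floors of 3 counts cover counting error only. Bounds of footprints use this floor for the group with 0 and take the count of the other group as exact.

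The labels give a replicate number and name no mouse. The number was read as the mouse, and the block takes it as given. In the check of this pairing, the difference between mice over 12256 genes correlated with 0.35 to 0.59 among 3 RNA-seq groups and with −0.57 to −0.40 between these and treated HFSCs. The numbers of treated HFSCs may thus be exchanged, which is not settled here, and a block with them exchanged was added after seeing the data. The 3 genes, the lists and the tests were chosen with earlier results of these data known. Named genes are the 3, the 5 with the highest r to each, and list genes that were called or had one of the 3 smallest p-values in a contrast. Paralogs, sort markers and Podxl were named after their values were seen. Alternatives were DESeq2 1.42.0, RLE factors, no minimum, a minimum of 10 counts, a block for the mouse, the 4 libraries compared alone, sums over transcripts and leaving out libraries.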

Additional observations from a re-analysis of the deposited data

How the results depend on the processing

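With 2 mice, calls near the threshold depended on the fit, and the Ribo-seq depth left few footprints per gene. The cause of the differences below was not tested.

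The log2 change of Ltbp2 with N1-AcSpd was called by DESeq2 (−1.62 in HFSCs, −1.31 in progenitors), with no minimum count (−1.60 and −1.31), with the exchanged block (−1.62 and −1.32) and, in HFSCs, with only the 4 libraries compared (−1.62). Its treated difference between cell types was not called with only the 4 libraries (2.06). Susd2 between untreated cell types was called by DESeq2 (0.99), with no minimum (0.99) and with the exchanged block (0.97). Its change with N1-AcSpd was called in HFSCs with the exchanged block (−0.51) and was not called in progenitors with sums over transcripts (−1.36). The mouse as a replicate block changed no call of the 3 genes, with a Susd2 change in progenitors of −1.39. Susd2 footprints between untreated cell types turned to −0.19 with DESeq2 and −0.25 with sums, and its translational efficiency in HFSCs to 0.042 and 0.083. Sums count a read once per transcript, and gave bounds of 7.99 for Cd34 and 6.62 for Susd2 between treated cell types.

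With each library or mouse left out, Cd34 between cell types ran from 4.43 to 5.05 untreated and from 3.65 to 5.18 treated, its change with N1-AcSpd from −0.35 to 0.42 in HFSCs and from −0.29 to 0.86 in progenitors, and its interaction from −0.92 to 0.39. Ltbp2 ran from 1.88 to 2.11 between treated cell types, from −1.66 to −1.56 with N1-AcSpd in HFSCs and from −1.40 to −1.13 in progenitors. Susd2 ran from 0.77 to 1.17 between untreated cell types, from −0.72 to −0.31 in HFSCs and from −1.52 to −1.25 in progenitors. In footprints, Cd34 between untreated cell types ran from 1.22 to 3.00, its change in HFSCs from −0.48 to 0.88 and its bound from 1.81 to 6.50, and Susd2 from −2.40 to 1.43, from −1.10 to 2.00 and from 1.51 to 5.68. The bound of Susd2 between untreated and treated progenitors ran from 1.41 to 9.89. With groups left without footprints, with a minimum mean of 10 counts in Ribo-seq, and for Ltbp2 footprints, no value could be had.

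The number of genes called in RNA-seq between treated cell types was 106, and 377 with DESeq2, 262 with no minimum, 27 with only the 4 libraries, 44 with the mouse as a block, 903 with the exchanged block and 70 with sums. Between untreated cell types it was 21, and 268, 167, 10, 3 and 752 in the first 5 of these. With N1-AcSpd in HFSCs 0 genes were called, and 125, 43, 5 and 269 with DESeq2, no minimum, only the 4 libraries and the exchanged block. In progenitors 34 were called, and 174 with DESeq2, 111 with no minimum, 20 with a minimum of 10, 7 with the block, 441 with the exchanged block and 1 with sums. In Ribo-seq 3 genes were called between treated cell types, and 1 with DESeq2 or a minimum of 10, 5 with RLE factors, 11 with only the 4 libraries and 0 with sums. Between untreated cell types 1 was called, and 2 with DESeq2, a minimum of 10, only the 4 libraries or the block, 3 with RLE factors and 0 with sums. With N1-AcSpd in progenitors 2 were called, and 0 with DESeq2 or sums. For translational efficiency 0 were called, and 1 in HFSCs with no minimum and 2 in progenitors with the block.

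Of the list genes, 0 were called between untreated and 1 between treated cell types, with 8 and 8 by DESeq2 and 22 and 21 of 75 at an unadjusted p under 0.05, beside 9.58% and 11.2% of all genes. With N1-AcSpd 1 was called in progenitors, 4 by DESeq2, 0 with the block and 15 unadjusted, beside 8.87% of all genes. In HFSCs 0 were called, 1 by DESeq2 and 9 unadjusted, beside 7.73%, and in the interaction 1 unadjusted, beside 0.83%.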
